A study of Mus musculus with 17 samples.

Results

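Chemokines are small secreted or membrane-bound proteins that attract leukocytes and other motile cells, and they act through receptors coupled to inhibitory G proteins. Atypical receptors bind the same ligands without this coupling and remove them or signal through arrestins. In mouse testis the best known axis is *Cxcl12*, a ligand made by Sertoli cells, with its receptor *Cxcr4* on spermatogonial stem cells, while *Ccl2* and *Cx3cl1* are known as attractants of monocytes and macrophages. The genes described here are 4 ligands of the testis stroma (*Cxcl14*, *Ccl2*, *Cx3cl1* and *Cxcl12*), the signalling receptor *Cxcr4* and the atypical receptor *Ackr3*. They were chosen by name, with earlier results of these data known, and all 6 had 1 row each among the 23362 genes of the count table. Counts of these genes set beside all genes are therefore a description.

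RNA was sequenced from adult testis of C57/Bl6 mice that were wild type (*Inha* WT) or lacked the inhibin alpha subunit in the whole animal (*Inha* KO), a genotype in which gonadal stromal tumours arise. KO mice were bred from heterozygotes and no other allele or treatment is given. The age label reads postnatal day 48 to 52, while the dissection protocol gives postnatal day 53 to 55. Regions were dissected by eye, namely WT testis (3 animals), KO tubules far from a tumour (N), KO tubules associated with a tumour (TAT) and the tumour itself (TM). TAT and TM were recognised by their vessels. According to the paper, TAT samples held interstitial tissue beside the tumours as well as tubules. N, TAT and TM came from the same 3 KO animals (79781, 79813 and 79853). KO animal 79813 gave pieces of both testes, with 4 tumour libraries, and pieces of one animal and region were summed, so that each of the 4 groups had n = 3 animals and the 17 libraries became 12.

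Totals of the unsummed libraries ranged between 6349358 and 35454195 counts for WT and between 24739160 and 32382283 for N. They ranged between 17413667 and 25065616 for TAT, and between 9139835 and 18995984 for TM. The summed libraries of KO animal 79813 were the deepest, with 61798403 counts in N, 45672982 in TAT and 65236067 in TM. *Inha* itself was at 62.9 to 70.6 CPM in WT (counts scaled to a common library size, with the TMM factor for RNA composition), at 0.510 to 1.74 CPM in N and TAT and at 3.20 to 5.24 CPM in TM, so the KO libraries were low in *Inha* as labelled. Spermatid markers, 6 in all and each called lower in TM, summed to 24400 to 30610 CPM in WT and 421 to 3259 CPM in TM. Red cell markers summed to 386 to 571 CPM in WT and 19210 to 49000 CPM in TM. Over all genes tested the median log2 fold change lay between -0.16 and 0.07 in the 6 comparisons.

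The genes lie on different chromosomes in GRCm38, except for the receptors. *Cxcl14* is on chromosome 13 (56288643 to 56296551, minus strand), *Ccl2* on chromosome 11 (82035571 to 82037453, plus strand), *Cx3cl1* on chromosome 8 (94772009 to 94782427, plus strand) and *Cxcl12* on chromosome 6 (117168535 to 117181367, plus strand). *Cxcr4* (128588199 to 128592293, minus strand) and *Ackr3* (90203980 to 90216751, plus strand) are both on chromosome 1. All are protein-coding genes in GENCODE release M21. *Ccl2* overlaps the antisense gene *Gm17268*, which was not analysed here, and since the use of strand in counting is not clear, reads of the pair may not have been told apart.

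The start regions of the members that moved together and of those that did not are printed here for comparison, from 100 bases before to 20 bases after the RefSeq start of each gene (GRCm38.p6), for the 5 members with an entry. Capitals mark the letters TATAAA of a core promoter element, at any position, and the Sp1-type box GGGCGG. Both were searched for on both strands, and adjoining matches run together.
Cxcl14 (chr13:56296532-56296651, minus): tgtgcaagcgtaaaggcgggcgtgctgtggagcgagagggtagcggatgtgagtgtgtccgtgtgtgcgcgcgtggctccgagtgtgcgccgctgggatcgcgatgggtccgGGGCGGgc
Cx3cl1 (chr8:94772080-94772199, plus): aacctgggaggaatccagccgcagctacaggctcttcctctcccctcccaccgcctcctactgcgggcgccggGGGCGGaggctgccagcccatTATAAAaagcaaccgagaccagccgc
Ackr3 (chr1:90203880-90203999, plus): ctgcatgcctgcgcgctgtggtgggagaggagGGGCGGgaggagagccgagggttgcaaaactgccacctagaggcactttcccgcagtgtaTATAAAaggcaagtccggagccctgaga
Cxcr4 (chr1:128592280-128592399, minus): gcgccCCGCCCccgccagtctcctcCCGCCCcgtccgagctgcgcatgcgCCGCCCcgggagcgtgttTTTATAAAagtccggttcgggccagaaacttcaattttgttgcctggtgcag
Cxcl12 (chr6:117168435-117168554, plus): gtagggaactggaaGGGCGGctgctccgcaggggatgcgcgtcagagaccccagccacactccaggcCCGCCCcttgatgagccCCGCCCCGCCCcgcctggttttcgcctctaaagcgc
The windows of *Cx3cl1*, *Ackr3* and *Cxcr4* held TATAAA, which 6.1% of 32851 RefSeq windows of this length hold, and those of *Cxcl14* and *Cxcl12* did not. On the strand of the gene, TATAAA began 6 bases before the start in *Cx3cl1*, 8 in *Ackr3* and 30 in *Cxcr4*. The *Cx3cl1* window lies inside the gene as GENCODE places it, from 94772009. All 5 windows held GGGCGG (26.7% of all windows), 4 times in *Cxcl12* and 3 times in *Cxcr4*. None of the 5 held ACGTG (the core of hypoxia response elements, in 9.62% of windows) or CAGACA (the core of a SMAD-type element, in 8.26%). These letters are a description of the windows, and none of the 4 motifs set apart the members that rose.

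Levels below are CPM per animal, and calls rest on the quasi-likelihood test of edgeR, with Benjamini-Hochberg adjustment over all genes tested, at an adjusted p under 0.05 together with a fold change above 1.5. All 6 genes passed the filter on low counts, *Ccl2* and *Cxcr4* through their TAT and TM libraries. *Ackr3*, with 2 counts in WT animal 79852, could not have passed through its WT libraries alone. For *Ccl2*, *Cxcr4* and *Ackr3*, the counts of members called or without overlap are partly set by that filter and are given as a description. No level is compared between genes. A library below is the summed library of an animal and region, unless pieces or unsummed libraries are named. In whole tissue, fewer cells of a type and less RNA per cell cannot be told apart.

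*Cxcl14*, a chemokine of fibroblasts and epithelia known to attract monocytes and dendritic cells, was higher in TAT and TM than in WT. In WT it was at 3.01, 2.28 and 3.05 CPM, and in N of KO animals 79781, 79813 and 79853 at 16.3, 17.1 and 27.3 CPM. In TAT of the same animals it was at 87.5, 53.0 and 277.2 CPM, and in TM at 190, 230 and 87.3 CPM. Every KO library lay above every WT library and every TAT and TM library above every N library, while TAT and TM overlapped. KO animal 79853 had the highest *Cxcl14* in TAT and the lowest in TM. *Cxcl14* rose in TAT (log2 fold change 5.66 ± 0.65 (SE), adjusted p = 0.000808) and in TM (5.94 ± 0.66, adjusted p = 4.55e-05) against WT. The difference of N from WT, 2.88 ± 0.58 on the log2 scale, did not pass (adjusted p = 0.170). Within KO animals *Cxcl14* was higher in TM than in N (log2 fold change 3.28 ± 0.64, adjusted p = 0.00404), and the difference of TM from TAT, 0.63 ± 0.63, did not pass (adjusted p = 0.488).

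*Ccl2*, which attracts monocytes through its receptor *Ccr2*, was nearly undetected in WT. The 3 WT libraries held 0, 0 and 1 count (0.0477 CPM in WT animal 79852). N held 0.0430, 0.136 and 0.591 CPM, TAT 1.42, 1.42 and 5.47 CPM and TM 3.84, 6.16 and 21.2 CPM. WT and N overlapped, and every TAT and TM library lay above every N library. In each KO animal the order was N, then TAT, then TM, with KO animal 79853 the highest in all 3 regions. Because the ratio to WT rests on 1 count, its counting interval is wide, 132 (95% interval 23.4 to 5238) for TAT and 477 (85.3 to 18860) for TM. *Ccl2* rose against WT in TAT (adjusted p = 0.00712) and in TM (adjusted p = 0.000380), with a ratio of 13.9 (2.30 to 570) in N that did not pass (adjusted p = 0.621). It also rose in TM against N (log2 fold change 5.50 ± 0.56, adjusted p = 0.00109). The intervals cover counting error only.

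*Cx3cl1* encodes fractalkine, a chemokine held on the cell surface by a stalk and released when ADAM10 or ADAM17 cuts it. It was at 7.96, 4.20 and 4.39 CPM in WT and at 6.37, 7.70 and 7.78 CPM in N, with the highest WT animal above all of N. In TAT it was at 12.8, 11.1 and 27.9 CPM and in TM at 21.9, 26.1 and 26.2 CPM. The mean was 24.7 ± 2.41 CPM (SD, n = 3) in TM and 17.3 ± 9.26 CPM in TAT, where KO animal 79853 stood above the others. *Cx3cl1* rose in TAT (log2 fold change 1.67 ± 0.39, adjusted p = 0.0121) and in TM (2.19 ± 0.40, adjusted p = 0.000620) against WT. N and WT differed by 0.43 ± 0.38 on the log2 scale (adjusted p = 0.924). TM was above N by 1.81 ± 0.33 on the log2 scale (adjusted p = 0.00310).

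**Figure D1:**
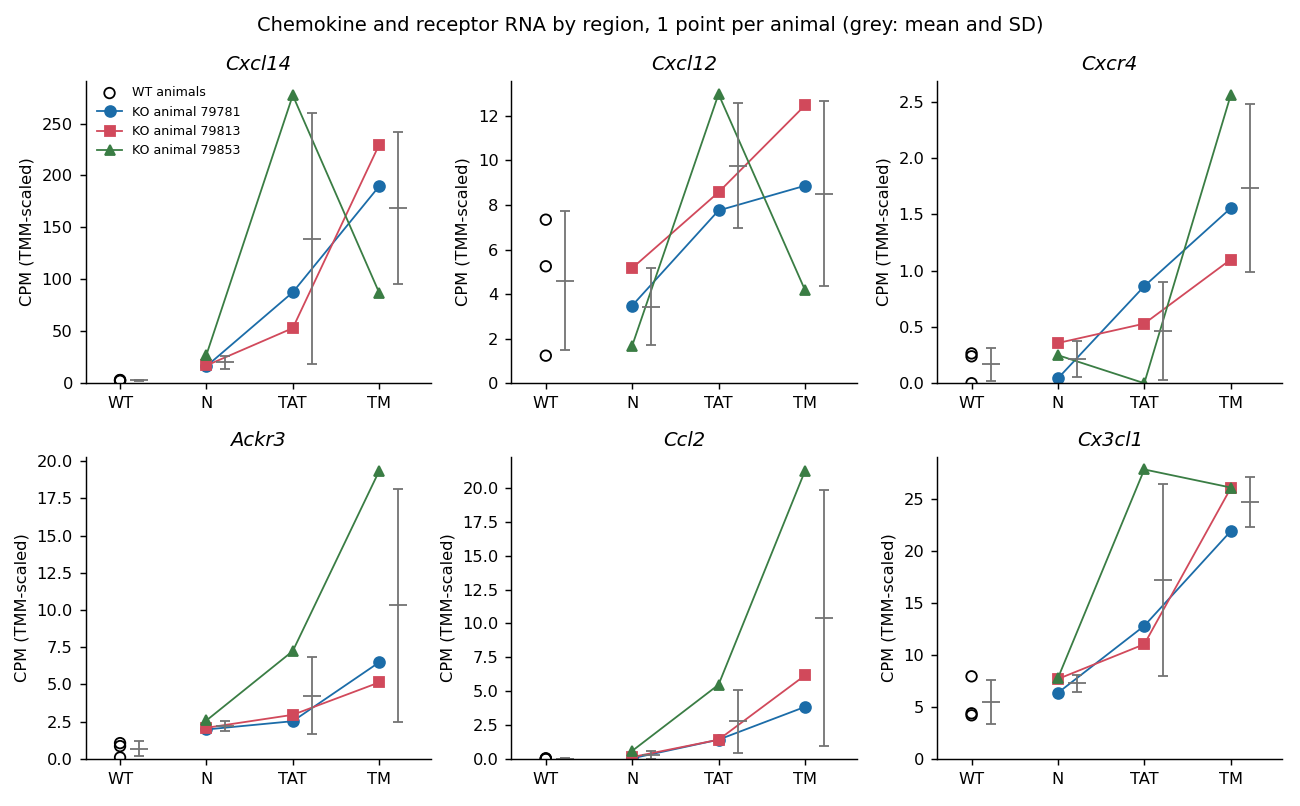
Each panel plots the TMM-scaled CPM of one gene in WT, N, TAT and TM, with 1 point per animal, lines joining the regions of one KO animal, and the mean and SD of 3 animals in grey beside each group. *Cxcl14*, *Ackr3*, *Ccl2* and *Cx3cl1* lie higher in TAT and TM than in WT, *Cxcl12* overlaps WT in TM, and KO animal 79853 crosses the other animals between TAT and TM in *Cxcl14* and *Cxcl12*.

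*Cxcl12*, the ligand that *Cxcr4* and *Ackr3* share, was called in none of the 6 comparisons, although in TM against N it was called in 8 of 15 alternatives, DESeq2 among them (adjusted p = 0.0358). It stood at 1.24, 7.34 and 5.25 CPM in WT, where the lowest value rests on 7 counts of the shallowest library. N held 3.48, 5.17 and 1.68 CPM, TAT 7.76, 8.57 and 13.0 CPM and TM 8.87, 12.5 and 4.20 CPM. Every TAT library lay above every WT and N library, while TM overlapped WT, N and TAT. Against WT the log2 differences were -0.45 ± 0.62 in N (adjusted p = 0.987), 1.04 ± 0.62 in TAT (adjusted p = 0.248) and 0.85 ± 0.62 in TM (adjusted p = 0.248). Against N they were 1.70 ± 0.54 in TAT (adjusted p = 0.123) and 1.36 ± 0.52 in TM (adjusted p = 0.0578), in the same direction in 3 of 3 animals. KO animal 79853 stood out as in *Cxcl14*, with the highest *Cxcl12* of the TAT libraries and the lowest of the TM libraries.

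*Cxcr4*, the signalling receptor of *Cxcl12* on leukocytes and stem cells, was at the edge of detection. WT libraries held 0, 8 and 5 counts (0, 0.265 and 0.239 CPM) and N libraries 1, 21 and 8 counts (0.0430, 0.357 and 0.249 CPM). TAT held 17, 25 and 0 counts (0.862, 0.529 and 0 CPM), where the count of 0 in KO animal 79853 allows up to 0.156 CPM. TM held 17, 72 and 39 counts (1.55, 1.10 and 2.56 CPM), so that every summed TM library lay above every summed library of the other groups. Unsummed libraries overlapped, with 0 CPM in a tumour piece of KO animal 79813 and 0.883 CPM in TAT of 79781. The test did not call the difference of TM, which was 3.17 ± 1.45 on the log2 scale against WT (adjusted p = 0.0765) and 3.07 ± 1.57 against N (adjusted p = 0.132). DESeq2 called both (adjusted p = 0.0197 and 0.0453), the fit of only the 2 groups called the first (0.0440) and limma-voom with a random animal term called the second (0.0263). In TAT the log2 difference from WT, 1.28 ± 1.38, did not pass (adjusted p = 0.533).

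*Ackr3*, the atypical receptor that binds and removes *Cxcl12*, was likewise higher in TAT and TM than in WT. WT held 1.06, 0.860 and 0.0955 CPM (6, 26 and 2 counts), and N held 1.98, 2.09 and 2.58 CPM. TAT was at 2.53, 2.96 and 7.25 CPM and TM at 6.49, 5.14 and 19.3 CPM. Every KO library lay above every WT library, every summed TM library above every summed N library, and *Ackr3* was higher in TM than in TAT in 3 of 3 animals although the groups overlapped. Unsummed libraries of TM and N overlapped, with 2.59 CPM in the tumour and 2.65 CPM in N of testis 1 of KO animal 79813. Against WT *Ackr3* rose in TAT (log2 fold change 2.75 ± 0.82, adjusted p = 0.0352) and in TM (4.03 ± 0.85, adjusted p = 0.00162). It rose in TM against N (2.00 ± 0.46, adjusted p = 0.00829), and the difference of TM from TAT, 1.24 ± 0.45, did not pass (adjusted p = 0.0764).

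Counted together, 0 of the 6 genes were called in N against WT, where 0.0202% of all 19791 genes tested were called higher and 0.0202% lower. At an unadjusted p under 0.05 there were 3 of 6, beside 7.59% of all genes. DESeq2 called 1, *Cxcl14* (log2 fold change 2.81 ± 0.55, adjusted p = 0.000209), beside 147 of all genes higher and 57 lower. Every N library lay above every WT library in 2 of 6 genes, *Cxcl14* and *Ackr3*, as it did in 12.3% of all genes. Without KO animal 79853 *Cxcl14* was called in N (log2 fold change 2.61 ± 0.29, adjusted p = 0.00777).

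In TAT against WT 4 of 6 genes rose (*Cxcl14*, *Ackr3*, *Ccl2* and *Cx3cl1*) and 0 fell, beside 14.4% of all genes higher and 4.61% lower (2850 and 912 genes, and with other scalings 2514 and 1792 for RLE factors or 4220 and 582 for total library size). *Cxcl12* was the fifth gene without overlap between the groups, which 26% of all genes showed in this direction. Of these calls, *Ackr3* was lost without any one of 5 animals, with an adjusted p of 0.106 without 79781, 0.0524 without 79783, 0.0696 without 79811, 0.0904 without 79852 and 0.138 without 79853. *Cx3cl1* was lost without 79781 (adjusted p = 0.0621), 79811 (0.0526), 79852 (0.0560) or 79853 (0.0749). *Cxcl14* and *Ccl2* were called without any one animal, with a log2 fold change of 4.68 in *Cxcl14* without 79853. For *Ccl2* it was 6.95 with all animals, 6.01 without 79853, 6.10 without 79811 and 9.36 without 79852, the WT animal that held its only WT count.

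In TM against WT the same 4 genes rose and 0 fell, beside 27.8% of all genes higher and 30.6% lower. Groups did not overlap in 5 of 6 genes, these and *Cxcr4*, against 30.9% of all genes. All 4 calls held without any one animal. The log2 fold change of *Ackr3* was then 3.19 without 79853 and 3.43 without 79852, and that of *Ccl2*, 8.87 with all animals, was 7.83 without 79853, 8.01 without 79811 and 11.27 without 79852.

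Between KO regions, 0 of 6 genes were called in TAT against N, a comparison in which 0% of the 19293 genes tested were called. At an unadjusted p under 0.05 there were 4 of 6 genes and 4517 of all genes. DESeq2 called 1914 of all genes higher and 1806 lower, and 4 of 6 members higher, namely *Cxcl14*, *Cxcl12*, *Ccl2* and *Cx3cl1*. In these 4 genes every summed TAT library lay above every summed N library, as in 22% of all genes. Unsummed libraries of *Cx3cl1* overlapped, at 8.18 CPM in TAT and 8.20 CPM in N of testis 2 of KO animal 79813. The log2 differences were 2.65 ± 0.63 in *Cxcl14* (adjusted p = 0.0746), 3.64 ± 0.53 in *Ccl2* (adjusted p = 0.0661), 1.17 ± 0.33 in *Cx3cl1* (adjusted p = 0.0988) and 0.76 ± 0.45 in *Ackr3* (adjusted p = 0.338), each in the same direction in 3 of 3 animals. Without KO animal 79813 *Cxcl14* (3.03 ± 0.64, adjusted p = 0.0458) and *Ccl2* (3.76 ± 0.72, adjusted p = 0.0373) were called.

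In TM against N 4 of 6 genes rose, *Cxcl14*, *Ackr3*, *Ccl2* and *Cx3cl1*, and 0 fell, beside 24.9% of all genes higher and 28.5% lower. Groups did not overlap in 5 of 6, these and *Cxcr4*, against 30.8% of all genes. Without 79781 the call was kept by *Ccl2* (adjusted p = 0.0473) and lost by *Cxcl14* (0.0745), *Ackr3* (0.0672) and *Cx3cl1* (0.0587). Without 79853 *Ackr3* was lost (adjusted p = 0.0546) and *Cxcl12* was called (log2 fold change 1.48 ± 0.41, adjusted p = 0.0192).

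In TM against TAT 1 of 6 genes was called, *Ccl2*, beside 7.65% of all genes higher and 17.7% lower. It was higher in TM in 3 of 3 animals by 1.86 ± 0.47 on the log2 scale (adjusted p = 0.0263) although the groups overlapped. The call was lost without the animal as a block (1.95 ± 0.95, adjusted p = 0.157) and without 79781 (adjusted p = 0.215), 79813 (0.109) or 79853 (0.122). Without 79853, *Cxcl14* (1.76 ± 0.27, adjusted p = 0.00713) and *Cx3cl1* (1.17 ± 0.32, adjusted p = 0.0306) were called higher in TM. *Cxcr4* alone had every summed TM library above every summed TAT library (18% of all genes), with a log2 difference of 2.07 ± 1.61 that did not pass (adjusted p = 0.367). These comparisons share samples, WT or N or TM, and are not independent of each other.

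**Figure D2:**
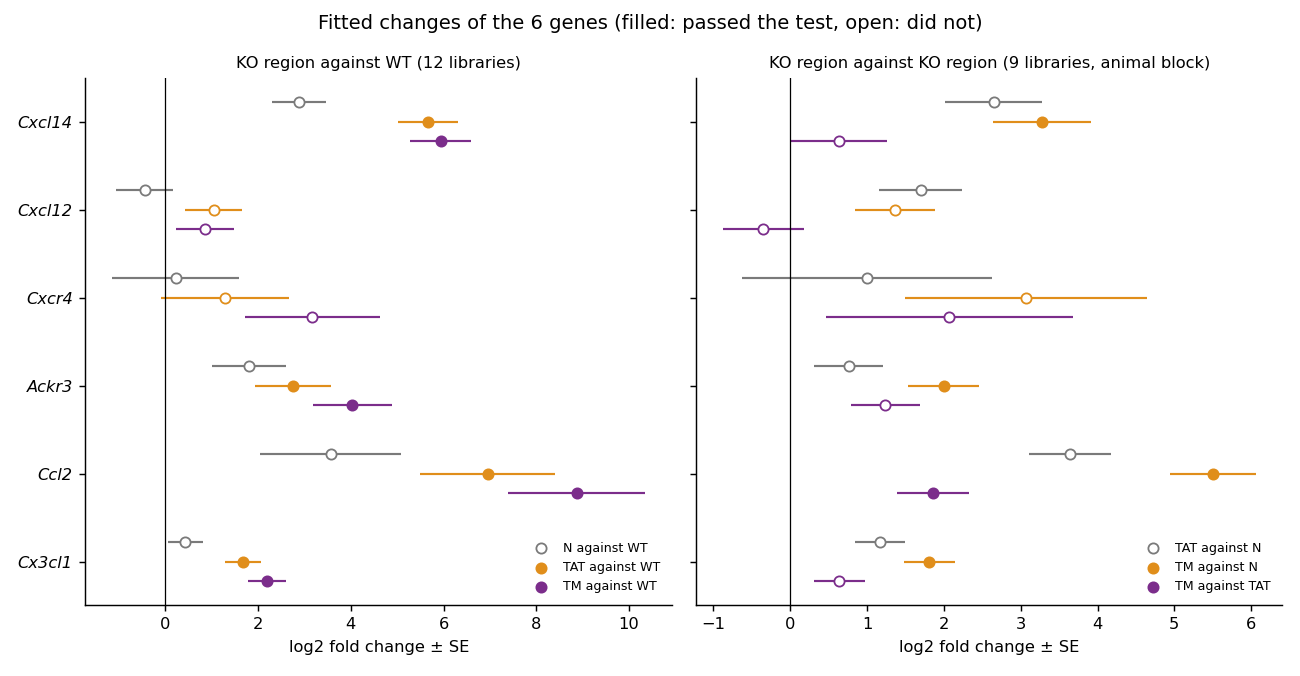
Points are fitted log2 fold changes of the 6 genes with their SE, against WT on the left and between KO regions on the right, filled where the gene was called and open where it was not. The 4 called genes against WT are the same in TAT and TM, no point is filled for N against WT or TAT against N, and *Ccl2* is the only filled point in TM against TAT.

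The 4 tumour libraries of KO animal 79813, 1 from the testis labelled 1 and 3 from the testis labelled 2, show how far the genes varied among tumours of one mouse. *Cxcl14* had the narrowest range, at 261, 232, 214.5 and 182 CPM (1.43-fold). *Cx3cl1* was at 24.4, 25.4, 18.1 and 31.5 CPM (1.74-fold). The counting intervals for *Cxcl14*, which leave out all other sources of error, were 253 to 270.2 CPM at the highest and 176 to 188 CPM at the lowest. *Ackr3* was at 2.59, 3.98, 6.92 and 5.17 CPM (2.67-fold), *Cxcl12* at 18.4, 5.60, 13.6 and 11.1 CPM (3.29-fold) and *Ccl2* at 4.88, 8.62, 7.52 and 2.48 CPM (3.47-fold). The piece with the most *Ccl2* had the least *Cxcl12*, and it held no count of *Cxcr4*, where the other 3 tumours held 13 to 44 counts.

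Between the 3 KO animals, the summed TM libraries ranged by 2.63-fold in *Cxcl14*, 2.97-fold in *Cxcl12*, 3.76-fold in *Ackr3*, 5.53-fold in *Ccl2* and 1.19-fold in *Cx3cl1*. The tumour of KO animal 79853 was the lowest of the 3 in *Cxcl14* and *Cxcl12* and the highest in *Ackr3* and *Ccl2*. It was also the highest in *Cxcr4* and *Cx3cl1*, with counting intervals that overlapped those of another KO animal. No test was made on pieces of one animal.

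**Figure D3:**
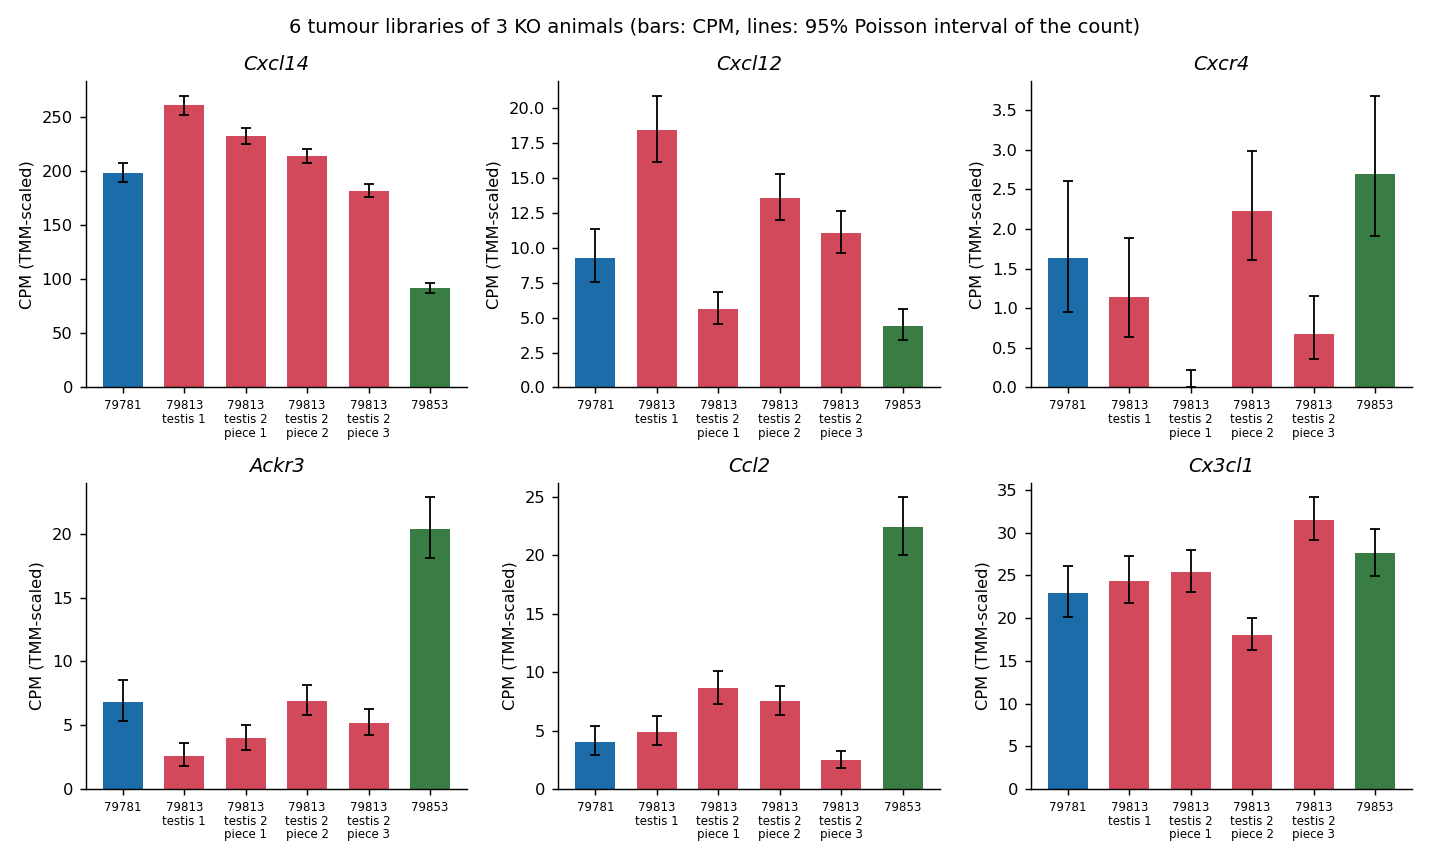
Bars are the TMM-scaled CPM of each gene in the 6 tumour libraries, coloured by KO animal, and black lines are 95% Poisson intervals of the count. *Cxcl14* and *Cxcl12* are lowest, and *Cxcr4*, *Ackr3* and *Ccl2* highest, in the tumour of KO animal 79853, and *Cxcr4* is at 0 in one tumour of KO animal 79813. For *Cxcl12* and *Cxcr4* the interval of the 79853 tumour overlaps that of a tumour of KO animal 79813.

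Markers of other cell types were measured beside these genes. The summed level of 8 stromal fibroblast markers was 130 to 147 CPM in WT and 350.0 to 496 CPM in N. It was 1489, 857 and 3011 CPM in TAT of KO animals 79781, 79813 and 79853 and 3403, 3856 and 827 CPM in TM. In both regions the 3 animals stood in the same order as for *Cxcl14*. This order was not particular to fibroblast markers, since the endothelial sum described below followed it in both regions too. The sums of pericyte markers and of peritubular myoid and smooth muscle markers followed it in TAT but not in TM. All 8 fibroblast markers were called higher in TM against WT, and 5 in TAT, beside 27.8% and 14.4% of all genes. *Dpt* was at 0 in WT. Pericyte markers, 6 in all, summed to 3.34 to 13.4 CPM in WT, 16.9 to 60.3 CPM in TAT and 22.5 to 69.3 CPM in TM. Their part in the results for *Cxcl14* and the other genes was not tested.

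The 12 endothelial markers summed to 16.1 to 25.5 CPM for WT, 31.4 to 43.1 CPM for N, 51.3 to 141 CPM for TAT and 57.4 to 135 CPM for TM, with 9 of 12 called higher in TM and 6 in TAT against WT (27.8% and 14.4% of all genes). The 10 macrophage markers summed to 51.6 to 64.4 CPM in WT, 119 to 138 CPM in TAT and 103 to 288 CPM in TM, with 6 of 10 called higher in TM and 4 in TAT against WT. In TM of KO animal 79853, the tumour with the most *Ccl2* and *Ackr3*, both sums were the lowest of the 3 tumours (57.4 and 103 CPM). The sum of 5 neutrophil markers was highest there, at 33.2 CPM against 7.18 and 7.59 CPM in the other tumours, with *Retnlg* at 0 in WT, N and TAT. Of 4 neutrophil markers tested, 2 were called higher and 1 lower in TM against WT, beside 27.8% and 30.6% of all genes. The sum of 10 Sertoli markers was lowest in the tumour of KO animal 79853 (250.1 CPM against 765 and 974 CPM). The 10 markers of undifferentiated spermatogonia, cells that use *Cxcr4*, summed to 29.2 to 41.2 CPM in WT and 28.0 to 60.2 CPM in TM. The part of these cells in the results was not tested.

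Genes among those whose profile over the 12 summed libraries was most like that of each member are given by Pearson's r of log2 CPM, as a description over libraries that share animals, regions and composition. For *Cxcl14* they were *Col1a1* (r = 0.991, and 0.993 over the 9 KO libraries), *Sparc* (0.989), *Arpc1b* (0.988), *Mtch1* (0.987) and *Col1a2* (0.984), of which *Col1a1* and *Col1a2* encode the chains of type I collagen and *Sparc* a matrix protein. The genes searched were those tested with a mean of at least 10 CPM, and the median r of *Cxcl14* over them was -0.213. For *Cx3cl1* they were *Sat1* (0.983), *Tmem43* (0.983), *Cmpk1* (0.982) and *Igfbp4* (0.981), and for *Ccl2* *Ago2* (0.981), *Kdelr3* (0.981), *Tet3* (0.979), *Tmem2* (0.977) and *Nsfl1c* (0.975). *Ackr3* was most like *Psmg4* (0.961), *Mrpl45* (0.958), *Dcps* (0.946), *Deb1* (0.941) and *Pnrc1* (0.940). *Cxcr4* was most like *Senp5* (0.942), *Polr1a* (0.867), *Tmem33* (0.856) and *Nufip1* (0.852). *Cxcl12* was most like *Glyr1* (0.898), *Ddrgk1* (0.889), *Rbm5* (0.872), *Selenof* (0.870, named from its gene ID since the table holds a date) and *Aldh6a1* (0.867).

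Among the members themselves, *Ccl2* and *Cx3cl1* (r = 0.93), *Cxcl14* and *Cx3cl1* (0.92) and *Cxcl14* and *Ccl2* (0.91) were the most alike. *Cxcl12* was alike neither to *Ackr3* (0.27) nor to *Cxcr4* (0.36), its receptors, and closer to *Cxcl14* (0.58, and 0.76 over the KO libraries).

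The other genes of the chemokine system were counted in 6 lists. Over all genes tested, 27.8% were called higher and 30.6% lower in TM against WT (median log2 fold change -0.07), and 14.4% and 4.61% in TAT against WT (median 0.07). A gene at or near 0 in WT could pass the filter on low counts only through the groups in which it was higher, so the counts and medians of tested genes are partly set by that filter and are given as a description. Of 17 CXC and other ligands, 14 had a row and 10 passed the filter, members included. In TM against WT 7 of 10 rose and 0 fell (median log2 fold change 3.52), and in TAT 3 rose and 0 fell (median 1.85). *Pf4*, a platelet chemokine also made by macrophages, rose in TM from 3.05 to 12.02 CPM in WT to 29.0 to 84.1 CPM (log2 fold change 3.00 ± 0.51, adjusted p = 0.000435). *Cxcl1* and *Cxcl5*, attractants of neutrophils, were at or under 0.0955 CPM in WT and at or under 1.10 CPM in TAT. In TM *Cxcl1* was at 4.24 to 50.5 CPM and *Cxcl5* at 1.69 to 40.5 CPM, and both rose against TAT (log2 fold changes 4.82 ± 0.91 and 4.68 ± 0.70, adjusted p = 0.0164 for each). The TAT count of 3 was 1 without 79781, 79811, 79852 or 79853, and the count of 3 in TM against TAT was 0 without 79781 and 5 without 79853.

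CC ligands went both ways. Of 24, 19 had a row and 18 were tested, and in TM against WT 9 rose and 3 fell (median 2.49; all genes 27.8% and 30.6%), while in TAT 5 rose and 0 fell (median 2.48; all genes 14.4% and 4.61%). *Ccl7*, like *Ccl2* a monocyte attractant, was at 0 to 0.0331 CPM in WT and 0.498 to 0.903 CPM in N. It was at 0.710 to 0.939 CPM in TAT and 2.10 to 13.6 CPM in TM, and was called in both against WT (adjusted p = 0.00785 and 0.000153). The difference of N from WT, 5.15 ± 1.14 on the log2 scale, did not pass (adjusted p = 0.2245). TAT and N differed by 0.11 ± 0.76 (adjusted p = 0.938). *Ccl6*, a chemokine of mouse myeloid cells, rose in TM from 0 to 1.39 CPM to 14.4 to 31.0 CPM (log2 fold change 5.24 ± 1.00, adjusted p = 0.000873) and was above TAT (2.11 ± 0.54, adjusted p = 0.0281). The 3 that fell, *Ccl27a*, *Ccl27b* and *Ccl28*, encode ligands of *Ccr10*. *Ccl27a* fell from 749 to 1169 CPM in WT to 36.8 to 177.5 CPM in TM (log2 fold change -3.30 ± 0.48, adjusted p = 0.000177) and was below TAT (-2.32 ± 0.42, adjusted p = 0.0164). *Ccl27a* and *Ccl27b* are near-identical copies and *Ccl27a* lies opposite *Il11ra1*, so the split of reads among these genes is uncertain. *Ccl28* fell from 4.49 to 7.97 CPM in WT to 0.721 to 1.10 CPM in TM (-2.73 ± 0.56, adjusted p = 0.00130), and *Ccl25*, a ligand of *Ccr9* that lies opposite *Elavl1*, fell in TM against N (-0.92 ± 0.32, adjusted p = 0.0425) and was not called against WT. The 11 CC ligands called in TM against N were 5 without 79781, 4 without 79813 and 7 without 79853. The TAT count was 2 without 79781 or 79852 and 3 without 79811, and that in TM against TAT (3 higher, 2 lower) was 0 without 79781, 2 without 79813 and 3 without 79853.

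Of 19 signalling receptors, 15 had a row and 11 were tested, and in TM against WT 3 rose and 0 fell (median 1.47), a share near the 27.8% of all genes called higher. *Cx3cr1*, the receptor of *Cx3cl1* on monocytes and macrophages, rose with its ligand from 2.82 to 5.85 CPM in WT to 11.7 to 23.7 CPM in TAT (log2 fold change 1.98 ± 0.48, adjusted p = 0.0143) and 9.57 to 25.3 CPM in TM (2.24 ± 0.48, adjusted p = 0.00184). It overlaps several other genes, *Wdr48* and *Csrnp1* among them. *Ccr2*, the receptor of *Ccl2*, rose in TM against WT from 0 to 0.364 CPM to 1.46 to 3.93 CPM (3.61 ± 0.96, adjusted p = 0.00669), and its difference in TAT, 1.61 ± 0.92, did not pass (adjusted p = 0.231). N held 0.903 to 1.87 CPM, which overlapped TM, and its difference from WT did not pass (2.63 ± 0.93, adjusted p = 0.529). TM was not called against N either (1.00 ± 0.70, adjusted p = 0.252). *Ccr1* was at 0 in WT and at 0 to 5.83 CPM in TM, and was called (adjusted p = 0.0165). *Ccr4*, a receptor of T cells, fell in TM against N (-3.79 ± 1.33, adjusted p = 0.0425). The 2 signalling receptors called in that comparison were 0 without 79781 and 1 without 79813. In TAT 1 receptor, *Cx3cr1*, was called against WT, and the count was 0 without 79781 or 79852 and 2 without 79813.

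All 5 atypical receptors had a row and 4 were tested, of which *Ackr3* and *Ackr4* rose in TM against WT. *Ackr4*, which removes CC ligands, was at 0 to 0.496 CPM in WT and 0.640 to 2.42 CPM in TM (2.84 ± 1.06, adjusted p = 0.0346), and lies opposite *Acad11*. *Ccrl2* was higher in TM than in N (3.83 ± 1.17, adjusted p = 0.0262), where the count of 2 atypical receptors was 0 without 79781 and 1 without 79813 or 79853. The TM count of 2 was 1 without 79783, 79813 or 79852.

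Of 8 proteases that cut or shed chemokines, 7 had a row and 6 were tested. All 6 rose in TM against WT (median 4.61), beside 27.8% of all genes, with 4 in TAT, beside 14.4%, and 0 lower. *Dpp4*, which was not tested, was at 0 to 0.695 CPM in WT and 0 to 0.168 CPM in TM. *Mmp9* was at 0 and *Mmp12* at or under 0.0661 CPM in WT, so the filter passed them through KO libraries. *Adam10* and *Adam17*, the sheddases of *Cx3cl1*, rose with it. *Adam10* was at 13.8 to 17.4 CPM in WT, 24.9 to 34.2 CPM in TAT and 56.5 to 72.6 CPM in TM (log2 fold change 2.06 ± 0.28, adjusted p = 0.000122 in TM). *Adam17* was at 8.63 to 18.4, 25.6 to 31.96 and 51.4 to 75.4 CPM (2.10 ± 0.29, adjusted p = 0.000141 in TM), with *Iah1* on the other strand. Both were also above TAT in TM, by 1.11 ± 0.22 and 1.15 ± 0.21 on the log2 scale (adjusted p = 0.0165 and 0.0164). *Mmp14*, a membrane metalloproteinase, went from 6.59 to 12.7 CPM in WT to 120 to 226 CPM in TM (3.98 ± 0.43, adjusted p = 4.39e-05), and *Mmp2*, which MMP14 activates, from 0.477 to 3.01 to 6.69 to 85.9 CPM (5.24 ± 0.95, adjusted p = 0.000622). The TAT count of 4 was 1 without 79781 and 2 without 79811 or 79852, and the count of 3 in TM against TAT was 0 without 79781.

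Of 13 genes that couple or desensitise chemokine receptors, 12 were tested, and in TM against WT 7 rose and 1 fell (median 1.37), beside 27.8% and 30.6% of all genes, with 5 higher and 0 lower in TAT, beside 14.4% and 4.61%. *Rgs2*, an inhibitor of G protein signalling, rose from 6.89 to 14.1 CPM in WT to 35.2 to 106 CPM in TAT and 230.1 to 452.5 CPM in TM (4.75 ± 0.47, adjusted p = 3.44e-05 in TM). *Arrb2*, the arrestin beta 2 gene through which ACKR3 signals, rose in TAT (1.93 ± 0.38, adjusted p = 0.00556) and TM (2.6 ± 0.39, adjusted p = 0.000212). The inhibitory G protein subunits *Gnai2* (1.42 ± 0.25) and *Gnai3* (1.24 ± 0.21) rose in TM as well (adjusted p = 0.000559 and 0.000371). *Adrbk2*, also called *Grk3*, a kinase that desensitises CXCR4, fell from 24.5 to 33.2 CPM in WT to 1.51 to 9.07 CPM in TM (-2.50 ± 0.49, adjusted p = 0.000969). The TAT count of 5 was 2 without 79781 and 3 without 79783 or 79853.

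**Figure D4:**
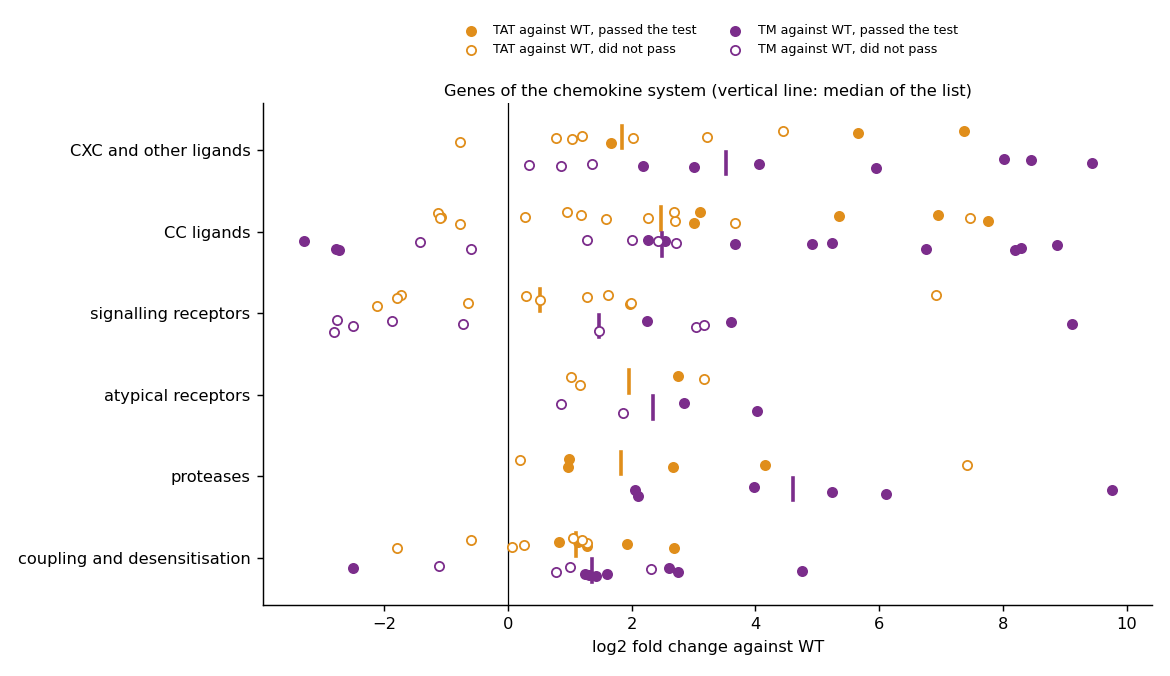
Each point is the log2 fold change against WT of one tested gene of the chemokine system, in TAT (upper row of each list) and TM (lower row), filled where called, and the vertical lines are medians of the lists. All 6 tested proteases are filled in TM, CC ligands lie on both sides of 0, and the median of the CXC and other ligands is 1.85 in TAT and 3.52 in TM.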

How the data were processed

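Libraries of total RNA from dissected testis began at the poly(A) tail and carried an index and a molecular identifier. The authors deposited expected counts per gene, estimated by Salmon after mapping with STAR (GRCm38, nf-core/rnaseq) according to the paper; 90.9% of the values are whole. The submitters' processing notes name STAR 2.6.1d and featureCounts of Subread 2.0.1. Whether identifiers or strand were used in counting is not given in the labels or the paper; the title of the deposited sheet is cut off and may refer to the forward strand. No column of the table was left unused.

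Counts were summed per animal and region, rounded, and tested in R 4.3.3 with edgeR 4.0.16 (filterByExpr, TMM, glmQLFit, glmQLFTest, Benjamini-Hochberg over all genes tested; called below an adjusted p of 0.05 with a fold above 1.5). N, TAT and TM were compared with WT in all 12 summed libraries, with one spread for all groups. Comparisons between KO regions used the 9 summed KO libraries and a block for the animal, which the labels show to be shared by the regions. Deviations of same-animal libraries correlated by 0.0922 on average (9 pairs), those of different animals by -0.0458 (18 pairs). SE is the log2 fold change over the root of F. A count of 0 allows 3 counts per library; Poisson intervals are exact at 95%. The code was tested on simulated data.

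Alternatives were other scalings, filters and tools (DESeq2 1.42.0, limma 3.58.1), unsummed libraries, thinned counts and leaving out each animal. Members and lists were chosen with earlier results of these data known. Genes of a list were named when called in any comparison, up to 4 by smallest p in TM against WT, up to 2 in each direction in TM against TAT, and any called against the majority of its list. Some genes that the rule on likeness named are not reported here.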

Additional observations from a re-analysis of the deposited data

Results flagged for a closer look

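Among the unsummed libraries of N (4), TAT (4) and TM (6), 18 sets of values were examined for a library that stands apart by Dixon's ratio, and 4 were flagged, all of KO animal 79853. Chance flags about 1 in 20 such sets, and pieces of KO animal 79813 are not independent of each other. The TAT library of KO animal 79853 was far above the others in *Cxcl12* (13.5 CPM) and in *Ccl2* (5.69 CPM). Its TM library was far above the other tumours in *Ackr3* (20.4 CPM) and *Ccl2* (22.4 CPM).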

How the results depend on the processing

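In TM against WT the count of 4 called genes was 4 or 5 under all 17 alternatives. In N against WT the count of 0 became 1 with DESeq2, with edgeR on 17 libraries and with only the 2 groups compared, and it ranged from 0 to 1 when an animal was left out. In TAT against WT the count of 4 ranged from 2 to 4 when an animal was left out. In TAT against N the count of 0 became 2 with total library size, 4 with DESeq2, 2 with limma-voom on 17 libraries, 4 with edgeR on 17 libraries, 1 with the animal as a random block, 4 with only the 2 groups compared and 1 with thinned counts, and 0 to 2 when an animal was left out. In TM against N the count of 4 was 6 with DESeq2 and with the random block, which added *Cxcl12* and *Cxcr4*, and 5 with total library size, limma-voom or edgeR on 17 libraries and thinned counts, which added *Cxcl12*, and it ranged from 1 to 4 when an animal was left out. In TM against TAT the count of 1 became 2 with DESeq2, 3 with limma-voom on 17 libraries, 2 with edgeR on 17 libraries and 2 with a random block, and 0 to 2 when an animal was left out. Without the replicate block the count was 0 in TM against TAT, 0 in TAT against N and 4 in TM against N. *Ackr3* in TAT against WT also missed the threshold with the random block, with 1 testis of KO animal 79813 and with thinned counts (adjusted p = 0.0533, 0.0534 and 0.0659). Over all genes the calls in TAT against N went from 0 to 4534 with only the 2 groups compared, those in N against WT from 8 to 204 with DESeq2, and those in TM against TAT from 4887 to 0 without 79781. Counts of the chemokine lists over all alternatives were 2 to 10 for CC ligands and 1 to 4 for CXC and other ligands in TAT against WT (5 and 3 in the report), and 9 to 15 and 5 to 10 in TM against WT (12 and 7). Total library size moved the median of all genes by 0.28 in TAT and 0.32 in TM against WT.

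Changes of sign came in values that were not called. *Cxcl12* in N against WT was 0.04 without 79811 and down to -0.86 without 79783. *Cxcr4* in N against WT was -0.74 with limma-voom on 17 libraries, -0.06 with the random block, -0.18 without 79783, -0.30 without 79813 and 0.68 without 79781, with a highest value of 0.81 over all alternatives, and in TAT against N it was -0.46 without 79781 and 1.79 without 79853. *Cxcl14* in TM against TAT was -0.16 without 79813 and 1.76 without 79853. *Cxcl12* in TM against TAT was 0.00 with limma-voom on 17 libraries, 0.02 with the random block and -0.77 without 79813 to 0.53 without 79853. The causes were not tested. The WT library of animal 79783, at 6349358 counts, limits *Cxcr4* and *Ccl2* in WT, where 0 counts allow up to 0.530 CPM.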
